A study of Gallus gallus with 24 samples.

Results

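The antioxidant and glutathione genes of the retinal pigment epithelium (RPE) are described here across 8 culture groups. They are the genes whose array annotation gives a single symbol beginning with GSTA, GSTM, GSTO, GSTT, GSTZ, GSTK, MGST, GPX, PRDX, TXN or GCL, together with SOD1, SOD2, SOD3, CAT, GSR, GSS, HMOX1, HMOX2, NQO1, FTH1 and MT4, and each was read from its brightest probe set. This gave 50 genes, from 93 probe sets, of the 13009 genes with a symbol on the array. SRXN1, the sulfiredoxin gene, was also on the list and was not matched to a probe set here.

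The RPE is a pigmented monolayer behind the photoreceptors that lives with high oxygen, light and a daily load of oxidized lipid, and it is known for a strong antioxidant defence. Superoxide dismutases turn superoxide into hydrogen peroxide, which catalase, peroxiredoxins and glutathione peroxidases then remove. Glutathione, made by glutamate-cysteine ligase and glutathione synthetase, and thioredoxin supply the electrons, glutathione S-transferases attach glutathione to reactive molecules, and the transcription factor NRF2 turns on many of these genes under oxidative stress.

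The study asked how secretions of the neural retina change gene expression in cultured chick RPE. RPE from White Leghorn embryos of embryonic day 14 (E14) or 7 (E7) was grown on filters, and total RNA was read on Affymetrix chicken genome arrays. At each age there were 4 media. In rcSF3 the apical chamber held medium conditioned by neural retinas of E14 embryos, in SF3 it held the same serum-free medium unconditioned, and each was used with or without fetal bovine serum in the basal chamber, giving rcSF3, rcSF3 with serum, SF3 with serum and SF3. All groups, the SF3 controls included, had bovine pituitary extract in the basal medium, all the serum was of a single lot, and the retinas behind rcSF3 were of E14 also for the E7 cultures. Each group had 3 arrays, 24 in all, each from a separate preparation that pooled several filters plated on the same day, so the p-values measure the spread between such preparations.

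The signal of a probe set is a linear brightness that the authors had scaled on each array to a common mean of about 500.1 (2.0% of probe sets trimmed at each end). The median signal lay between 89.3 and 121 on the 24 arrays, and arrays of the same group correlated at 0.918 to 0.939 over log2 signal, against 0.894 to 0.935 between ages, so no array stood apart. All 14 markers of RPE on a list that included RPE65, BEST1 and TYR averaged above 100 in every group. Markers of fibroblasts and mesenchyme moved with the media. Their summed signal had medians of 2570 in rcSF3, 9372 in rcSF3 with serum, 12945 in SF3 with serum and 5333 in SF3 in E14 cultures, and of 2041, 6381, 12720 and 5726 in the same order in E7 cultures, while PDGFRA, TWIST1 and ACTA2 of that list were at or under 100 throughout. Of 8 macrophage and leukocyte markers 3 averaged above 100, and PTPRC and SPI1 were at or under 100 in every group. The log2 ratio of the 3′ to the 5′ probe set of actin, a measure of RNA quality, was lower in the groups with serum, at 0.32 ± 0.05 and 0.40 ± 0.07 in E14 rcSF3 with serum and SF3 with serum against 0.69 ± 0.08 and 0.75 ± 0.03 in rcSF3 and SF3, and at 0.27 ± 0.10 and 0.37 ± 0.06 against 0.63 ± 0.10 and 0.75 ± 0.12 in E7 cultures (SD, n = 3 each). GAPDH was read in this way too. In E14 cultures it stood at -0.034 ± 0.029 and -0.018 ± 0.024 with serum, against -0.062 ± 0.060 and -0.033 ± 0.031 without. In E7 cultures it stood at 0.061 ± 0.045 and -0.031 ± 0.036, against -0.068 ± 0.045 and -0.030 ± 0.026 (media in the order used for actin). The GAPDH ratio was thus higher with serum in E7 rcSF3, where the arrays did not overlap, while that of actin was lower. The part of the cell markers and of RNA quality in the results below was not tested.

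Differences were tested with limma on log2 signal, within an age over the 19219 probe sets kept as the brightest 50% at that age (mean signal above 94.5 in E14 and 91.5 in E7 cultures), and between ages over the 20021 that passed at either age. A difference was called at a Benjamini-Hochberg adjusted p under 0.05, and is given as a log2 difference with its standard error. Of the 50 genes, 44 passed the filter in E14 and 45 in E7 cultures, GPX2 passing in E7 cultures alone, and GPX7, GSTA3, HMOX1, MGST2 and TXNRD1 passed in neither. For 24 genes there was 1 probe set and for 26 there were several. As the RNA came from whole cultures, fewer cells with a transcript and less transcript per cell cannot be told apart.

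Across the 4 media of an age, 29 of 44 genes differed in E14 cultures (40.1% of all probe sets tested differed) and 29 of 45 in E7 cultures (60.9%). The genes with the widest range of group means among those tested were SOD3, with a span of 2.68 on the log2 scale from E14 SF3 as the highest group to E7 rcSF3 as the lowest, GSTT1L (2.21), GSTA4 (2.07), MT4 (1.92), GPX2 (1.80) and GCLC (1.69). The median spread within a group was far smaller for most of them, with SDs of 0.14, 0.17, 0.12 and 0.13 for the first 4, and 0.42 for the dim GPX2. GPX2 was kept through its E7 signal alone. At the other end, TXNDC15, MGST3 and TXNDC17 spanned 0.27, 0.28 and 0.31. Among others, E7 SF3 was the lowest group for all 4 genes of glutathione synthesis and recycling and for GSTA4, MGST1, CAT, MT4 and NQO1. It was the highest group for GPX2, HMOX2, PRDX4 and TXNL4A. How often E7 SF3 was the lowest or highest group over all probe sets was not counted.

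**Figure D1:**
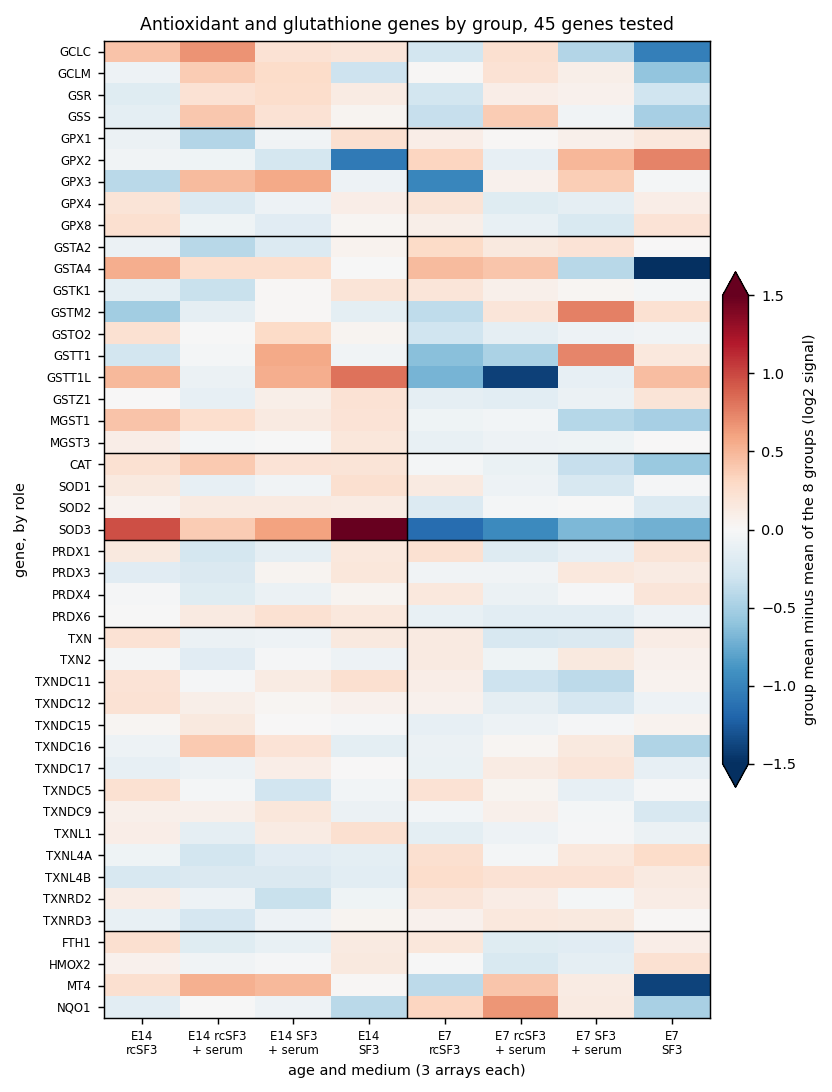
Group means of log2 signal for the 45 genes tested, as the difference from the mean of the 8 groups (colour), with genes in rows by role and groups in columns, 3 arrays each. E7 SF3 at the right is low for GSTA4, MT4 and GCLC, and SOD3 is high in all E14 groups and low in all E7 groups.

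rcSF3 changed 14 of 45 genes in E7 cultures, where 26.8% of all probe sets were called, and 9 of 44 in E14 cultures, where 9.57% were called. In E7 cultures 8 were higher and 6 lower in rcSF3 than in SF3 (13.2% and 13.6% of all probe sets). GSTA4, MT4, NQO1, GCLC, GCLM, CAT, MGST1 and TXNDC5 rose, and GSTT1L, GPX3, GSTT1, GSTM2, SOD3 and GSTZ1 fell. In E14 cultures 4 rose, GSTA4, TXNDC5, NQO1 and MGST1, and 5 fell, SOD3, GSTM2, GSTK1, PRDX3 and GPX3 (4.79% and 4.78% of all probe sets). After quantile normalization the split was 3 and 3, and over all 19219 probe sets 874 higher and 968 lower. The arrays of rcSF3 and SF3 did not overlap for 17 genes in E7 cultures (39.3% of all probe sets) and 15 in E14 cultures (28.2%). The median of the genes was 0.04 in E7 cultures (all probe sets -0.02) and -0.05 in E14 cultures (all probe sets 0.03). In all, 7 genes were called at both ages, each in the same direction, namely GPX3, GSTA4, GSTM2, MGST1, NQO1, SOD3 and TXNDC5, which are 77.8% of the 9 and 50% of the 14. How many of all probe sets were called at both ages, and in which direction, was not counted. These shares can therefore not be set beside that of all probe sets. The E14 count was the less stable. With any 1 of the 6 arrays left out it was 1 to 5, and it was 1 without SF3 replicate 1, 2 without SF3 replicate 2, 5 without SF3 replicate 3, and 5, 3 and 4 without rcSF3 replicates 1, 2 and 3. Calls over all probe sets fell as well, from 1840 to between 1043 and 1547 in E14 cultures, and from 5154 to between 4071 and 4607 in E7 cultures. GSTA4 was the 1 gene of the 9 that was called whichever array was left out.

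**Figure D2:**
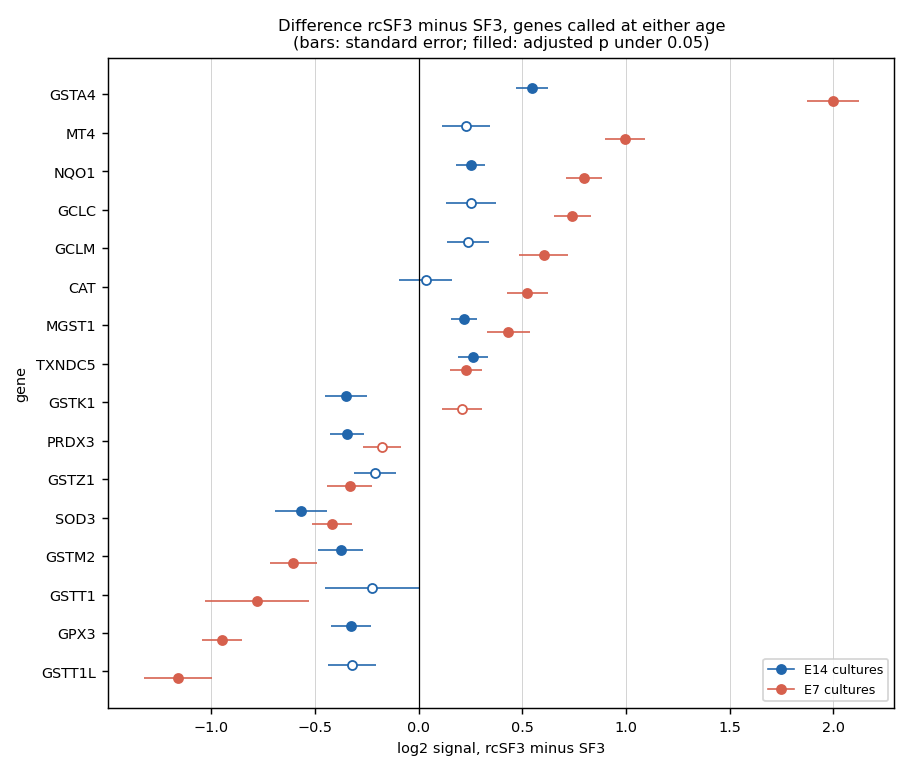
Log2 difference between rcSF3 and SF3 in E14 and E7 cultures for the 16 genes called at either age, with standard errors, and filled points for adjusted p under 0.05. GSTA4 in E7 cultures, at 2.00, is the furthest point to the right and GSTT1L in E7 cultures, at -1.16, the furthest to the left.

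Serum in SF3 changed 22 of 45 genes in E7 cultures (38.3% of all probe sets), 11 higher and 11 lower (17.2% and 21.1%), and 12 of 44 in E14 cultures (23.7%), 5 higher and 7 lower (11.8% and 11.9%). The arrays with and without serum did not overlap for 25 genes in E7 (50.4% of all probe sets) and 24 in E14 cultures (39.3%). The E14 count was 6 without E14 SF3 replicate 1 and 7 without E14 SF3 with serum replicate 1. Over all probe sets 3354 and 3392 were called there, against 4554 with every array. This comparison uses the same SF3 arrays as that of rcSF3, so both sets of differences share their error. Of the genes called, 9 were called at both ages and in the same direction, which are 75.0% of the 12 and 40.9% of the 22. For all probe sets this overlap was likewise not counted. MT4, GSTA4, GCLM, NQO1 and GPX3 rose at both ages, and FTH1, PRDX1, SOD1 and TXN fell at both. Most of the falls were in very bright probe sets. Of 7 genes with a mean signal over 11585, a limit chosen after the values were seen, 6 fell with serum in E7 cultures (FTH1, GPX4, PRDX1, PRDX4, SOD1 and TXN) and 4 in E14 cultures. The 377 probe sets that bright in E7 cultures had a median of -0.21 with serum and 56.2% of them were called lower, and the 406 in E14 cultures had a median of -0.15 with 34.2% called lower. After quantile normalization none of the 7 genes was lower in E7 cultures and 1 in E14 cultures. The calls over all genes became 12 higher and 5 lower at E7, and 5 higher and 3 lower at E14. Of all 19219 probe sets, 3547 were then called higher and 3697 lower at E7, and 2214 and 2252 at E14. Where a difference of one of these genes is given below, it is from the signals as the authors scaled them.

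**Figure D3:**
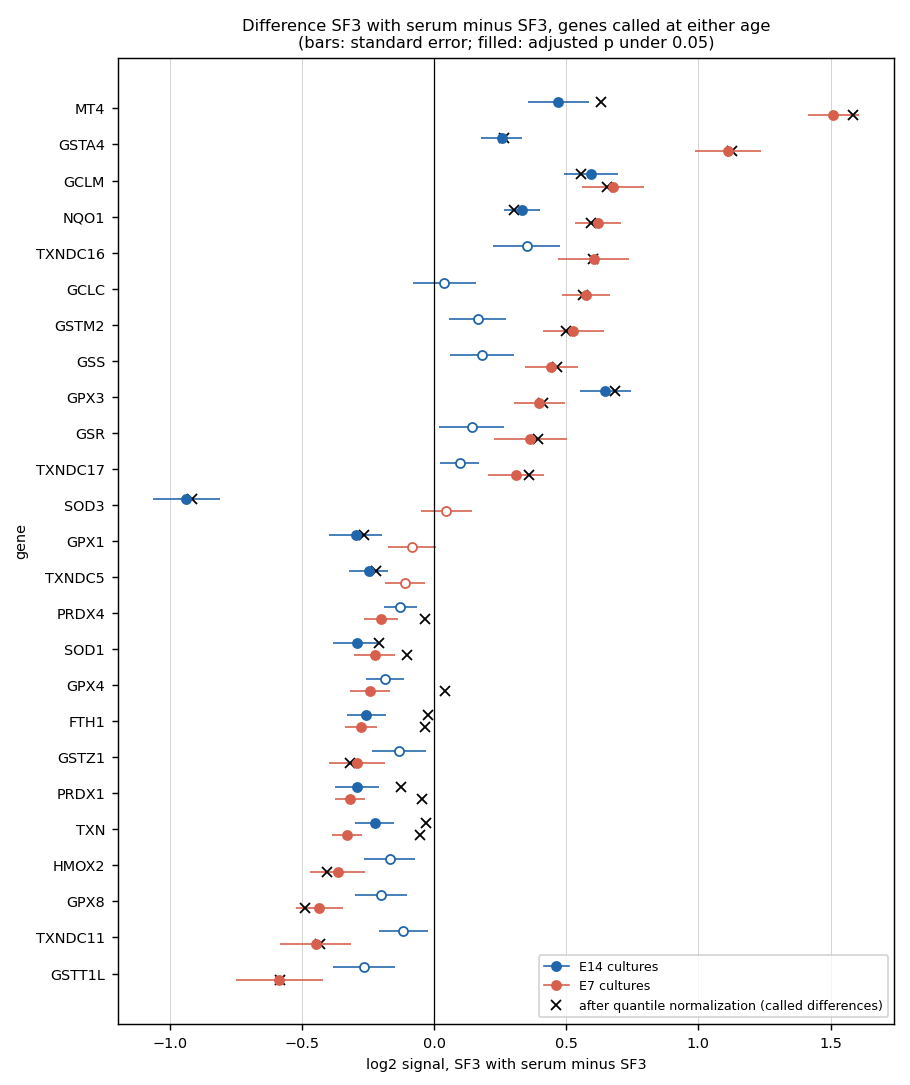
Log2 difference between SF3 with serum and SF3 in E14 and E7 cultures for the 25 genes called at either age, with standard errors, filled points for adjusted p under 0.05 and crosses for the called differences after quantile normalization. In E7 cultures the crosses of FTH1, PRDX1, TXN, PRDX4 and GPX4 lie near 0, whereas those of MT4, GSTA4, GCLM and NQO1 stay to the right.

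With serum present, rcSF3 changed 10 of 45 genes in E7 cultures (21.0% of all probe sets), 6 higher and 4 lower (11.1% and 9.9%), and 1 of 44 in E14 cultures (2.81%, with 1.08% higher and 1.73% lower), GSTT1L, which fell. At an unadjusted p under 0.05 there were 12 in that E14 comparison. The share of all probe sets at an unadjusted p under 0.05 is not given. This count and others of its kind below can therefore not be set beside it. The arrays compared did not overlap for 16 genes in E7 (38.9% of all probe sets) and 17 in E14 cultures (24.1%). With rcSF3 present, serum changed 14 of 45 genes in E7 cultures (30.8%), 6 higher and 8 lower (14.7% and 16.1%), and 18 of 44 in E14 cultures (22.8%), 6 higher and 12 lower (11.3% and 11.5%). The last count was 11 without E14 rcSF3 replicate 3, where 3168 of all probe sets were called, against 4391 with every array. Under quantile normalization these splits were 6 higher and 3 lower in E7 cultures, and 8 higher and 6 lower in E14 cultures. Of all 19219 probe sets, 2848 were then higher and 2961 lower in E7 cultures, and 2190 and 2325 in E14 cultures. The E14 and E7 cultures came from different embryos. Between them, 16 of 45 genes differed in SF3 (35.0% of all probe sets), 12 higher and 4 lower in E14 (15.3% and 19.8%), and 14 of 45 in rcSF3 (22.9%), 8 higher and 6 lower in E14 (10.9% and 12%). The 4 lower in SF3 include GPX2, which passed the filter through E7 cultures alone. Arrays of the 2 ages did not overlap for 22 genes in SF3 (47.1% of all probe sets) and for 21 in rcSF3 (36.5%). A test of the response in E14 against that in E7 called 6 of 45 genes for rcSF3, 2 higher and 4 lower (5.21% of all probe sets, 2.27% and 2.94%), and 3 of 45 for serum, all lower (3.61%, with 1.59% higher and 2.02% lower). Both tests use the same SF3 arrays of each age as the difference between ages in SF3, so these results share their error. The rcSF3 test is also the difference between ages in rcSF3 minus that in SF3.

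**Figure D4:**
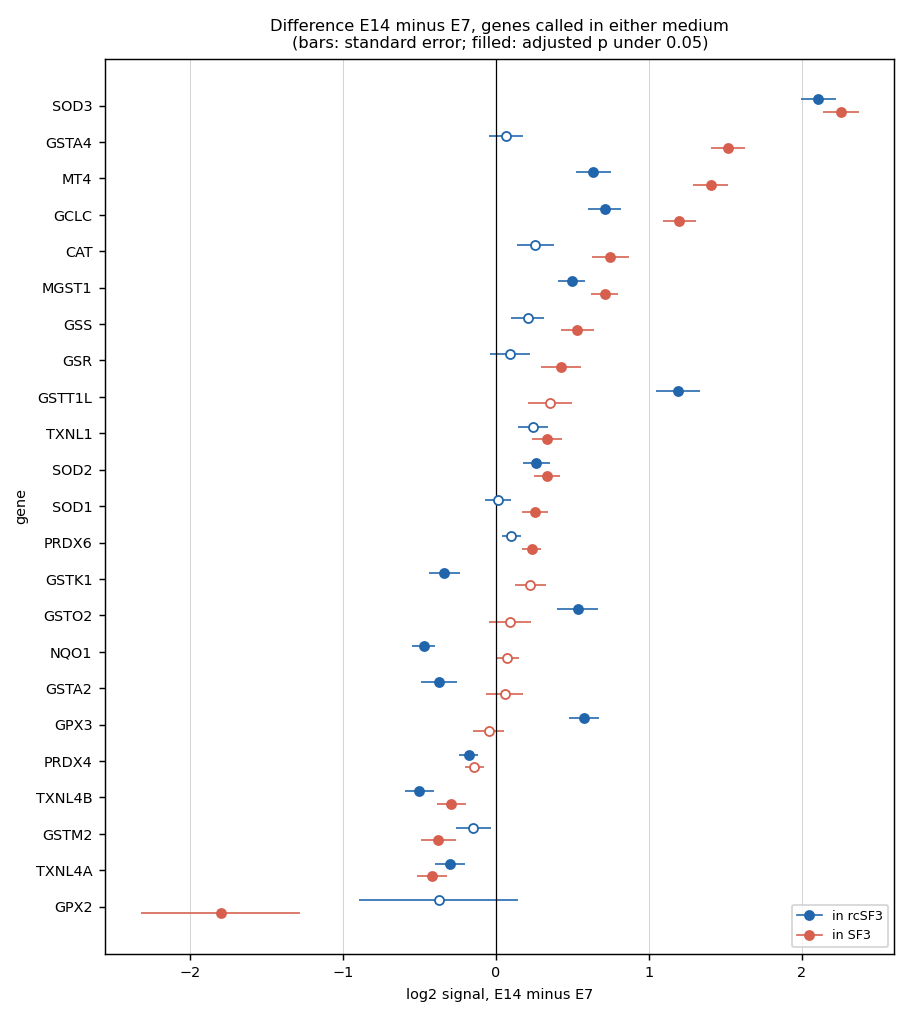
Log2 difference between E14 and E7 cultures, in rcSF3 and in SF3, for the genes called in either medium, with standard errors and filled points for adjusted p under 0.05. SOD3 lies above 2 in both media, whereas GSTA4 is at 0.07 in rcSF3 and 1.52 in SF3.

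Glutathione synthesis comprised 4 genes. In E7 cultures all 4 of GCLC, GCLM, GSS and GSR were higher with serum in SF3, with a median difference of 0.51 (38.3% of all probe sets were called, and 17.2% higher). In E14 cultures GCLM was the 1 called for serum in SF3 (23.7%). With rcSF3 present, serum raised 3 of the 4 in E14 cultures, GCLM, GSS and GSR (22.8% called, 11.3% higher), and 2 in E7 cultures (30.8% and 14.7%). There GSS in E14 cultures had 1253, 1341 and 1209, against 965, 803 and 839 in rcSF3, without overlap. The E14 call of GSR was lost without rcSF3 or rcSF3 with serum replicate 2 or 3. With rcSF3, GCLC and GCLM were higher in E7 cultures (26.8%) and none of the 4 was called by limma in E14 cultures (9.57%), where 2 had an unadjusted p under 0.05.

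GCLC, the catalytic subunit of glutamate-cysteine ligase, the rate-limiting enzyme of glutathione synthesis, had signals of 1763, 1589 and 1751 in E7 rcSF3, 2747, 2263 and 2339 in E7 rcSF3 with serum and 1592, 1431 and 1524 in E7 SF3 with serum, against 996, 1052 and 1001 in E7 SF3. No array of the other 3 media overlapped those of SF3, and the arrays with both stimuli lay above all others. The differences were 0.74 ± 0.09 for rcSF3 (1.67-fold, limma adjusted p = 2.54e-05), 0.58 ± 0.09 for serum (adjusted p = 0.000186), 0.69 ± 0.09 for rcSF3 with serum present (adjusted p = 0.000115) and 0.52 ± 0.09 for serum with rcSF3 present (adjusted p = 0.000596). A second probe set of GCLC rose by 0.81 with rcSF3 in E7 cultures but stood at 0.18 with serum, where it was not called. In E14 cultures GCLC had 3159, 2397 and 2845 in rcSF3, 3138, 3459 and 3242 in rcSF3 with serum, 2358, 2380 and 2460 in SF3 with serum and 2402, 1928 and 2748 in SF3, groups that overlapped in part. None of the pairwise E14 differences of GCLC that were tested was called. In the test across the 4 E14 media together all 4 genes of this role were called, GCLC included (40.1% of all probe sets were). Both stimuli together against SF3 was not a pairwise comparison tested. The difference of GCLC between ages in SF3 was 1.20 ± 0.11 (2.30-fold higher in E14, limma adjusted p = 1.09e-08). GCLC has 3 probe sets, with a mean log2 signal of 11.01, 9.88 and 3.94. In the mean of all 3, its calls between ages, in SF3 and in rcSF3, were lost. The E7 calls for rcSF3 and for serum in either apical medium were lost too. That for rcSF3 with serum present in E7 cultures was kept.

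GCLM, the modifier subunit of the same enzyme and a known NRF2 target, had 2315, 1864 and 2112 in E7 rcSF3 and 2147, 2594 and 1909 in E7 SF3 with serum, against 1558, 1243 and 1344 in E7 SF3. Both groups lay wholly above SF3, by 0.60 ± 0.12 (adjusted p = 0.00130) and 0.68 ± 0.12 (adjusted p = 0.000394). The group with both, rcSF3 with serum, at 2412, 2367 and 2465, was 0.13 ± 0.12 above serum alone (adjusted p = 0.455). In E14 cultures SF3 with serum had 2369, 2496 and 2676 against 1589, 1514 and 1917 in SF3, again without overlap (0.59 ± 0.10, 1.51-fold, adjusted p = 0.000791), and rcSF3 had 2122, 1947 and 1829 (0.24 ± 0.10, adjusted p = 0.164). The second GCLM probe set was called in the same direction for rcSF3 at E7 (0.54) and for serum at both ages (0.31 in E7, 0.46 in E14).

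GSS, glutathione synthetase, which adds the last amino acid, was highest with both stimuli. It had 1217, 1284 and 1246 in E7 rcSF3 with serum, against 706, 687 and 872 in E7 rcSF3, 902, 950 and 911 in E7 SF3 with serum and 666, 675 and 692 in E7 SF3. Serum raised it in either apical medium, by 0.73 ± 0.10 in rcSF3 (adjusted p = 0.000107) and 0.44 ± 0.10 in SF3 (adjusted p = 0.00293), and rcSF3 raised it with serum present (0.44 ± 0.10, adjusted p = 0.00640, against 0.15 ± 0.10, adjusted p = 0.307, without; the difference between the 2 was not tested). GSS was 0.53 ± 0.11 higher in E14 than in E7 SF3 (adjusted p = 0.000553). It has 2 probe sets, with a mean log2 signal of 9.90 and 7.35. In the mean of both, the difference between ages was -0.02 and not called. The calls for rcSF3 with serum present in E7 cultures and for serum in rcSF3 in E14 cultures were also lost. Those for serum in E7 cultures, in SF3 and in rcSF3, were kept. GSR, glutathione reductase, which returns oxidized glutathione to its working form, had smaller differences, 0.36 ± 0.14 with serum in E7 cultures (adjusted p = 0.0494) and 0.43 ± 0.13 between ages in SF3 (adjusted p = 0.0130). The first was lost when any array of the comparison but SF3 with serum replicate 3 was left out, and the second without E7 SF3 replicate 1.

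Among the glutathione peroxidases, GPX3, the secreted plasma form, moved in opposite directions with rcSF3 and serum. In E7 cultures it had 2285, 2828 and 2268 in rcSF3, against 4650, 4728 and 4780 in SF3, a 0.519-fold level without overlap (-0.95 ± 0.10, adjusted p = 4.82e-06). With serum it had 5171, 4943 and 4981 in rcSF3 and 6523, 5374 and 6855 in SF3. Serum raised it at E7 by 1.04 ± 0.10 in rcSF3 (adjusted p = 4.75e-06) and by 0.40 ± 0.10 in SF3 (adjusted p = 0.00470). In E14 cultures it had 4070, 3790 and 3140 in rcSF3, 6653, 6349 and 7036 in rcSF3 with serum and 7740, 6882 and 6883 in SF3 with serum, against 4677, 4903 and 4156 in SF3. The order of the media was as in E7 cultures, with serum raising GPX3 by 0.65 ± 0.10 (adjusted p = 0.000281) and the rcSF3 difference smaller at -0.33 ± 0.10 (adjusted p = 0.0458), a call lost without SF3 replicate 1 or 2 or rcSF3 replicate 2 or 3. The rcSF3 response itself differed between the ages by 0.62 ± 0.14 (E14 minus E7, adjusted p = 0.00938).

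GPX8, of the endoplasmic reticulum, fell with serum in E7 cultures to 3194, 2518 and 3147, against 3879, 4117 and 3904 in SF3 (-0.43 ± 0.09, adjusted p = 0.00151). GPX1, the cytosolic form, stayed within 0.68 on the log2 scale over all groups, and its fall with serum in E14 cultures (-0.30 ± 0.10, adjusted p = 0.0441) was lost without SF3 replicate 1 or 2 or SF3 with serum replicate 2 or 3. GPX4, the form that reduces lipid peroxides in membranes, was among the very bright genes, with 20838, 25605 and 24085 in E7 SF3 with serum against 26992, 26665 and 29597 in E7 SF3 (-0.24 ± 0.07, adjusted p = 0.0187). This call was lost without SF3 replicate 3 or SF3 with serum replicate 1, with no filter, without moderated variances and after quantile normalization. GPX2, known from gut epithelium, was near the filter, with 60, 15.3 and 112 in E14 SF3 against 147, 157 and 188 in E7 SF3 (-1.80 ± 0.52, adjusted p = 0.00943). Without E14 SF3 replicate 2, the lowest array, the difference was no longer called. GPX2 entered the test between ages through its E7 signal alone. The filter thus favoured a lower value in E14, and this call is no support for a difference between ages.

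The glutathione S-transferases held the largest difference between media in these comparisons. GSTA4, which conjugates the lipid peroxidation product 4-hydroxynonenal, had 11388, 13018 and 14228 in E7 rcSF3, against 3418, 2583 and 3746 in E7 SF3, a 4.00-fold difference with no overlap (2.00 ± 0.12, adjusted p = 7.10e-08). With serum the E7 arrays had 13368, 11453 and 12235 in rcSF3 and 6111, 7600 and 7193 in SF3. Serum alone raised GSTA4 by 1.11 ± 0.12 (2.16-fold, adjusted p = 1.30e-05), and rcSF3 raised it by a further 0.83 ± 0.12 (adjusted p = 0.000363), while serum added to rcSF3 made a difference of -0.06 ± 0.12 (adjusted p = 0.767). In E14 cultures the same gene had 13236, 13066 and 14027 in rcSF3, 10621, 10936 and 11428 in rcSF3 with serum, and 10036, 10953 and 12050 in SF3 with serum, against 9501, 8469 and 9682 in SF3. All these groups lay above all E7 SF3 arrays, and rcSF3 was 0.55 ± 0.08 above SF3 (1.46-fold, adjusted p = 0.000506). Serum in E14 cultures raised GSTA4 in SF3 (0.26 ± 0.08, adjusted p = 0.0240) and lowered it in rcSF3 (-0.29 ± 0.08, adjusted p = 0.0125). The first call was lost without SF3 replicate 2 or SF3 with serum replicate 2 or 3, and the second without rcSF3 replicate 3 and after quantile normalization. GSTA4 was 1.52 ± 0.11 higher in E14 than in E7 SF3 (2.87-fold, adjusted p = 3.70e-10). It differed by 0.07 ± 0.11 between the ages in rcSF3 (adjusted p = 0.706). Its responses to rcSF3 and to serum were both smaller in E14 cultures, with differences of -1.45 ± 0.16 (adjusted p = 7.10e-06) and -0.86 ± 0.16 (adjusted p = 0.00313). These 2 differences and that between ages in SF3 rest on the same SF3 arrays, and are not separate results.

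GSTT1L, a theta-class member, went the other way. It had 391, 352 and 429 in E7 rcSF3 and 191, 240 and 302 in E7 rcSF3 with serum, and 608, 504 and 634 in E7 SF3 with serum, against 963, 896 and 762 in E7 SF3. The 4 media of E7 cultures did not overlap, and the group with both stimuli was the lowest. The differences were -1.16 ± 0.16 for rcSF3 (0.448-fold, adjusted p = 0.000106), -0.59 ± 0.16 for serum (adjusted p = 0.0112, lost without SF3 with serum replicate 2) and -1.27 ± 0.16 for rcSF3 with serum present (adjusted p = 0.000110). In E14 cultures it had 941, 976 and 764 in rcSF3, 682, 548 and 570 in rcSF3 with serum and 978, 873 and 922 in SF3 with serum, against 1090, 1171 and 1072 in SF3. The E14 rcSF3 difference was -0.32 ± 0.12 and not called (adjusted p = 0.106), and with serum present it was -0.63 ± 0.12 (adjusted p = 0.0120), the 1 call of that comparison, lost without SF3 with serum replicate 1 or rcSF3 with serum replicate 2. The rcSF3 response differed between ages by 0.84 ± 0.20 (adjusted p = 0.0153). A second probe set of GSTT1L gave -0.92 for rcSF3 in E7 cultures, also called, and -0.06 for the E14 call, where it was not. GSTT1L has 4 probe sets, with a mean log2 signal of 9.31, 9.23, 6.21 and 5.92. In the mean of all 4, every call of GSTT1L between media was lost, as was that of the rcSF3 response between ages. The call between ages in rcSF3 was kept. GSTT1, of the same class, had 198, 107 and 163 in E7 rcSF3 against 231, 372 and 203 in E7 SF3 (-0.78 ± 0.25, adjusted p = 0.0314), a call lost without SF3 replicate 2 or rcSF3 replicate 2 or 3, and its second probe set, at -0.43, was not called. With serum present the E7 groups of GSTT1 did not overlap, with 150, 181 and 174 in rcSF3 with serum against 442, 402 and 325 in SF3 with serum (-1.20 ± 0.25, adjusted p = 0.00366), a call kept whichever array was left out, while the second probe set stood at -0.03.

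GSTM2, of the mu class, fell with rcSF3 and rose with serum in E7 cultures. It had 1503, 1500 and 1519 in rcSF3 and 3473, 3125 and 3312 in SF3 with serum, against 2094, 2521 and 2277 in SF3, with no overlap in either case (-0.60 ± 0.11, adjusted p = 0.00117, and 0.53 ± 0.11, adjusted p = 0.00228). In E14 cultures rcSF3 had 1354, 1454 and 1278 against 1956, 1771 and 1587 in SF3 (-0.38 ± 0.11, adjusted p = 0.0380), a call lost when any array of the comparison but SF3 replicate 3 was left out. MGST1, a microsomal enzyme with both transferase and peroxidase activity, rose with rcSF3 to 8899, 7146 and 9605 in E7 cultures, against 6668, 5962 and 6252 in SF3 (0.43 ± 0.10, adjusted p = 0.00635), and to 12568, 11566 and 11781 in E14 cultures, against 9957, 10676 and 10241 in SF3 (0.22 ± 0.06, adjusted p = 0.0385). The E14 call of MGST1 was lost whichever array of the comparison was left out, after quantile normalization and with the replicate block. Between ages MGST1 was 0.71 ± 0.09 higher in E14 SF3 (adjusted p = 1.41e-06), and a second probe set gave 0.78.

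GSTK1, of the mitochondrial and peroxisomal kappa class, had 2659, 3148 and 3233 in E14 rcSF3 against 3805, 3842 and 3828 in E14 SF3 (-0.35 ± 0.10, adjusted p = 0.0418) and 3212, 4244 and 4002 in E7 rcSF3 against 3287, 3148 and 3396 in E7 SF3 (0.21 ± 0.10, adjusted p = 0.123). The E7 groups overlapped, and the E14 call was lost when any array of the comparison but rcSF3 replicate 3 was left out. The difference between the responses was -0.56 ± 0.14 (adjusted p = 0.0219), a second bright probe set gave -0.67, also called, and the first was not called without E14 rcSF3 replicate 1, E7 rcSF3 replicate 2 or 3, or E7 SF3 replicate 2. GSTA2, GSTO2 and GSTZ1 had called differences in 1 or 2 pairwise comparisons each, of -0.37 to 0.53, and MGST3 had none. The GST genes of a class are close in sequence, and how far their probe sets share signal was not tested.

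SOD3, the extracellular superoxide dismutase, had the largest difference between ages of the 45 genes in both media. In SF3 it had 6649, 6517 and 4998 in E14 against 1367, 1171 and 1240 in E7 cultures, and in rcSF3 4629, 3729 and 3861 in E14 against 932, 1028 and 866 in E7 cultures. No E14 array of any medium was as low as an E7 array. The differences were 2.26 ± 0.12 (4.78-fold, adjusted p = 1.36e-12) and 2.11 ± 0.12 (4.31-fold, adjusted p = 1.90e-11). With rcSF3 SOD3 fell at both ages, with differences of -0.57 ± 0.13 in E14 (adjusted p = 0.0108) and -0.42 ± 0.10 in E7 cultures (adjusted p = 0.00469), without overlap, though the E14 call was lost without SF3 replicate 1 or 2. Serum lowered it in E14 cultures, to 2788, 3166 and 3494 in SF3 with serum (-0.94 ± 0.13, 0.522-fold, adjusted p = 0.000127) and to 2655, 2398 and 3055 in rcSF3 with serum (-0.59 ± 0.13, adjusted p = 0.00382). In E7 cultures SF3 with serum had 1386, 1251 and 1262, a difference of 0.05 ± 0.10 from SF3 (adjusted p = 0.734), and the difference between the serum responses of the ages was -0.98 ± 0.16 (adjusted p = 0.00150).

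**Figure D5:**
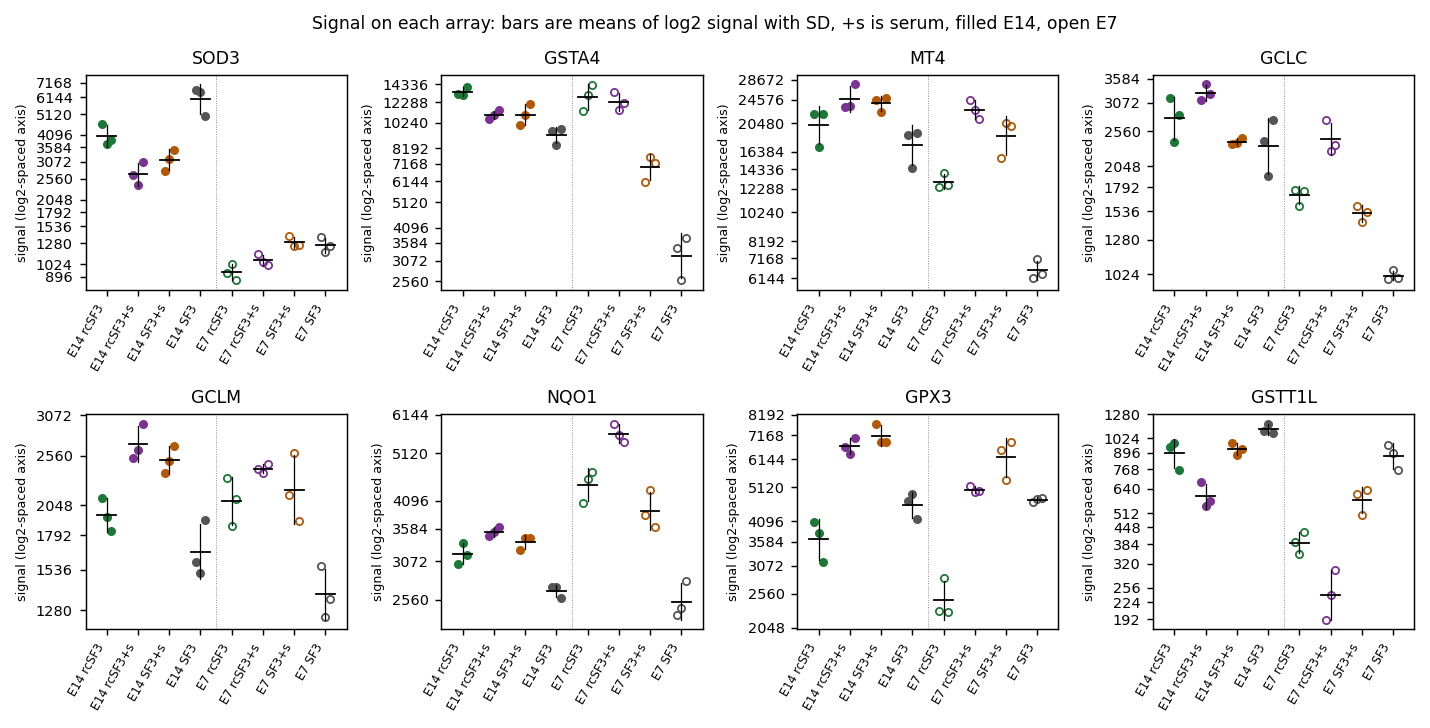
Signal of 8 genes on each of the 24 arrays on a log2-spaced axis, E14 groups filled at the left and E7 groups open at the right, with the mean and SD of log2 signal. GSTA4, MT4, GCLC and NQO1 are low in E7 SF3 and higher in the other E7 media, and SOD3 is higher in every E14 array than in any E7 array.

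CAT, catalase, had 3838, 3948 and 4208 in E7 rcSF3 against 2747, 2863 and 2719 in E7 SF3 (0.53 ± 0.10, 1.44-fold, adjusted p = 0.00109), and 4525, 3894 and 5755 in E14 SF3 (0.75 ± 0.12 above E7 SF3, adjusted p = 4.51e-05). The E14 media overlapped, and none of the pairwise E14 differences of CAT was called. Its probe sets disagreed for serum, where another set fell by 0.90 in E7 and by 0.62 in E14 cultures and a further set rose by 0.37 in E7 cultures, while the brightest stood at 0.21 and 0.01. SOD2, the mitochondrial enzyme, was 0.33 ± 0.09 higher in E14 than in E7 SF3 (adjusted p = 0.00416), and SOD1, the cytosolic one, 0.26 ± 0.09 higher (adjusted p = 0.0246). The SOD1 call was lost without E14 SF3 replicate 1 or E7 SF3 replicate 2 or 3, and with no filter. In the mean of its 2 probe sets the difference was -0.27. With the SOD1 call counted, all 4 genes of this role were called higher in E14 SF3, where 35.0% of all probe sets were called and 15.3% were higher. SOD1, one of the very bright genes, had 13488, 12751 and 14630 in E7 SF3 with serum against 17368, 15099 and 15275 in E7 SF3 (-0.22 ± 0.08, adjusted p = 0.0335). This call was lost without SF3 replicate 1 or SF3 with serum replicate 1 or 2. It was also lost with no filter, without moderated variances, after quantile normalization and in the mean of all its probe sets.

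Peroxiredoxins reduce peroxides with electrons mostly from thioredoxin. Of the 4 tested, 2 were called lower with serum in E7 cultures (21.1% of all probe sets). In E14 cultures 1 was called lower (11.9%). By limma none was called for rcSF3 in E7 cultures, where 26.8% of all probe sets were called. None of the 4 had an unadjusted p under 0.05 there (0 of 4), a count with no share of all probe sets beside it. PRDX3, the mitochondrial one, had 1921, 2155 and 2070 in E14 rcSF3 against 2630, 2625 and 2539 in E14 SF3, without overlap (-0.34 ± 0.08, adjusted p = 0.0169), but its second probe set stood at -0.10 there and was called in E7 cultures at 0.54 instead. The E14 call of PRDX3 was lost without SF3 replicate 1 or 2 or rcSF3 replicate 1. PRDX6 was 0.23 ± 0.06 higher in E14 than in E7 SF3 (adjusted p = 0.00569). PRDX1 and PRDX4 were among the very bright genes, and PRDX1 had 21080, 23835 and 22915 in E7 SF3 with serum against 27917, 27420 and 29216 in E7 SF3 (-0.32 ± 0.06, adjusted p = 0.000482).

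Of the 14 genes of the thioredoxin system that were tested, 1 was called for rcSF3 at each age (26.8% of all probe sets in E7 and 9.57% in E14 cultures), TXNDC5, a disulfide isomerase of the endoplasmic reticulum, which rose by 0.26 ± 0.07 in E14 (adjusted p = 0.0361) and 0.23 ± 0.08 in E7 cultures (adjusted p = 0.0365). The E7 call was lost without SF3 or rcSF3 replicate 2 or 3, and the E14 call when any array but SF3 replicate 2 was left out. Serum changed 4 of 14 in E7 cultures (38.3% of all probe sets) and 2 in E14 cultures (23.7%). TXNDC16 had 1251, 1225 and 1122 in E7 SF3 with serum against 922, 791 and 672 in E7 SF3 (0.60 ± 0.13, adjusted p = 0.00271), while its other bright probe sets, at -0.25 and -0.15, were not called. TXN, thioredoxin itself, was very bright, with 22218, 24613 and 23131 in E7 SF3 with serum against 28688, 29084 and 30135 in E7 SF3 (-0.33 ± 0.06, adjusted p = 0.000450). A pair of spliceosome proteins of thioredoxin fold, TXNL4A and TXNL4B, were lower in E14 than in E7 cultures in SF3 (-0.42 ± 0.10 and -0.29 ± 0.10) and in rcSF3 (-0.30 ± 0.10 and -0.50 ± 0.10). The TXNL4A call in rcSF3 and the TXNL4B call in SF3 were lost after quantile normalization. The first was also lost without E14 rcSF3 replicate 1 or 2 or E7 rcSF3 replicate 3, and the second without E14 SF3 replicate 2 or 3 or E7 SF3 replicate 2 or 3. TXN2, TXNDC9, TXNDC12, TXNDC15, TXNRD2 and TXNRD3 were not called in any pairwise comparison.

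Among the heme, quinone, iron and metal genes, MT4 and NQO1 responded to both stimuli. MT4, a metallothionein that binds zinc and copper, had 12525, 13904 and 12671 in E7 rcSF3, 24553, 22684 and 21221 in E7 rcSF3 with serum and 15575, 20537 and 20085 in E7 SF3 with serum, against 6154, 7115 and 6334 in E7 SF3. All arrays of these 3 media were above those of SF3. The differences were 1.00 ± 0.10 for rcSF3 (2.00-fold, adjusted p = 3.21e-06), 1.51 ± 0.10 for serum (2.85-fold, adjusted p = 1.23e-07) and 0.81 ± 0.10 for serum with rcSF3 present (adjusted p = 3.96e-05). In E14 cultures MT4 had 22079, 17030 and 22011 in rcSF3, 23260, 23433 and 27715 in rcSF3 with serum and 24589, 22394 and 24859 in SF3 with serum, against 18692, 14483 and 19047 in SF3. The E14 groups with rcSF3 and SF3 overlapped, and of the pairwise E14 differences between media the serum one of 0.47 ± 0.12 (adjusted p = 0.00849) was the 1 called. MT4 was 1.41 ± 0.11 higher in E14 than in E7 SF3 (2.65-fold, adjusted p = 2.46e-09). Its responses to rcSF3 and serum were smaller in E14 cultures, with differences of -0.77 ± 0.16 (adjusted p = 0.00493) and -1.04 ± 0.16 (adjusted p = 0.000736). As for GSTA4, these share the SF3 arrays with the difference between ages in SF3.

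NQO1, the quinone reductase most used as a readout of NRF2, had 4048, 4532 and 4698 in E7 rcSF3, 5896, 5576 and 5417 in E7 rcSF3 with serum and 3820, 4304 and 3608 in E7 SF3 with serum, against 2379, 2460 and 2799 in E7 SF3. As for GCLC, the arrays with both stimuli were above all arrays with either one. The differences were 0.80 ± 0.09 for rcSF3 (1.74-fold, adjusted p = 9.43e-06), 0.62 ± 0.09 for serum (adjusted p = 8.06e-05), 0.53 ± 0.09 for rcSF3 with serum present (adjusted p = 0.000726) and 0.35 ± 0.09 for serum with rcSF3 present (adjusted p = 0.00751). In E14 cultures it had 3037, 3357 and 3167 in rcSF3 and 3241, 3436 and 3436 in SF3 with serum, against 2723, 2716 and 2589 in SF3, again without overlap but smaller (0.25 ± 0.07, adjusted p = 0.0341, and 0.33 ± 0.07, adjusted p = 0.00315). The first of these calls was lost when any array of the comparison but rcSF3 replicate 1 was left out. Unlike GCLC and MT4, NQO1 did not differ detectably between ages in SF3 (0.08 ± 0.08, adjusted p = 0.472). It was lower in E14 than in E7 cultures in rcSF3 (-0.47 ± 0.08, adjusted p = 8.36e-05). Its rcSF3 response was smaller in E14 cultures, with a difference of -0.55 ± 0.11 (adjusted p = 0.00277). NQO1 has 2 probe sets, with a mean log2 signal of 11.79 and 5.83. In the mean of both, every call of NQO1 was lost, between media and between ages.

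FTH1, the ferritin heavy chain, is the main iron store of the cell, and had 30907, 33255 and 34446 in E7 SF3 with serum against 38778, 39220 and 41408 in E7 SF3 (-0.28 ± 0.06, adjusted p = 0.00203). HMOX2, the constitutive heme oxygenase, fell with serum in E7 cultures to 3050, 3247 and 3154, against 4486, 4362 and 3409 in SF3 (-0.36 ± 0.10, adjusted p = 0.0118), a call lost without E7 SF3 replicate 1 or 2. HMOX1, the inducible heme oxygenase, was below the filter at both ages and is given as signals with no test. In E14 cultures it had 84.0, 116 and 96.5 in rcSF3, 84.2, 28.1 and 84.3 in rcSF3 with serum and 97.6, 142 and 132 in SF3 with serum, against 102, 108 and 84.0 in SF3. Here SF3 overlapped every other medium, and rcSF3 with serum lay below SF3 with serum without overlap. In E7 cultures it had 17, 7.13 and 13.7 in rcSF3, 22.2, 17.2 and 87.4 in rcSF3 with serum and 51.3, 24.2 and 38.8 in SF3 with serum, against 12, 7.61 and 10.2 in SF3, so that SF3 with serum lay above SF3 with no overlap, at signals under the filter. TXNRD1, the cytosolic thioredoxin reductase and also an NRF2 target, was dim in every group, between 1.77 and 54.2. GPX7 had 117, 113 and 129 in E14 rcSF3 against 30.7, 40.5 and 8.27 in E14 SF3, where the arrays did not overlap, and the highest signals of GSTA3 and MGST2 on any array were 81.6 and 67.7.

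The genes that feed and control this system were read from 10 lists, whose shares of calls can be set beside the 26.8% (rcSF3) and 38.3% (serum) of all probe sets called in E7 cultures. Of 8 tested regulators of the NRF2 pathway, 3 were higher and none lower with rcSF3 in E7 cultures, although the median of the list was -0.15. They were NFE2L2, which encodes NRF2 itself (0.29 ± 0.07, adjusted p = 0.00826), the regulator BACH1 (0.32 ± 0.10, adjusted p = 0.0281) and CUL3, part of the ligase that degrades NRF2 (0.26 ± 0.08, adjusted p = 0.0304). With serum, 4 were higher and 1 lower in E7 cultures, led by the small Maf protein MAFK (0.94 ± 0.12, adjusted p = 2.67e-05) and the adaptor SQSTM1 (0.55 ± 0.07, adjusted p = 3.44e-05). In E14 cultures none of 7 was called for rcSF3 at an adjusted p under 0.05 (9.57% of all probe sets were), with 1 at an unadjusted p under 0.05. With serum 2 of 7 were higher there (11.8% of all probe sets).

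Of 11 genes that supply NADPH, 4 were higher and 1 lower with rcSF3 in E7 cultures and 4 higher and 2 lower with serum. Malic enzyme ME1 rose with each (0.67 ± 0.08, adjusted p = 1.45e-05, and 0.64 ± 0.08, adjusted p = 2.01e-05), and serum raised mitochondrial IDH2 (0.92 ± 0.08, adjusted p = 1.08e-06) and lowered cytosolic IDH1 (-0.67 ± 0.09, adjusted p = 3.25e-05). Of 15 genes of cysteine and glutathione supply and breakdown, 4 were higher and 1 lower with rcSF3 in E7 cultures. Those included AHCY of the methionine cycle (0.80 ± 0.09, adjusted p = 2.09e-05) and the peptidase ANPEP (-1.62 ± 0.21, adjusted p = 4.57e-05). SLC7A11, the cystine transporter, rose by 1.11 ± 0.22 with rcSF3 there (adjusted p = 0.00155), and with rcSF3 present serum lowered it (-1.06 ± 0.22, adjusted p = 0.00214).

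Of 15 glutaredoxins and repair enzymes, 5 were higher and 5 lower with rcSF3 in E7 cultures, led by sestrin SESN3 (1.19 ± 0.11, adjusted p = 1.91e-06), P4HB (-0.48 ± 0.05, adjusted p = 1.28e-05) and glutaredoxin GLRX (-0.74 ± 0.10, adjusted p = 6.51e-05). Of 7 genes of glutathione conjugate export and glyoxalases, 3 were higher and 1 lower, with the exporters ABCC3 at -1.27 ± 0.11 (adjusted p = 1.21e-06) and ABCC1 at 0.57 ± 0.12 (adjusted p = 0.00238). Between ages in SF3 the exporter ABCC4 was 2.73 ± 0.28 higher in E14 (adjusted p = 7.11e-08). Of 14 genes of iron and heme handling, 2 were higher and 2 lower, with the transferrin receptor TFRC at -0.88 ± 0.07 (adjusted p = 4.42e-07) and ALAS1, the first enzyme of heme synthesis, at -0.69 ± 0.09 (adjusted p = 4.37e-05). TFRC also fell with rcSF3 in E14 cultures (-0.73 ± 0.10, adjusted p = 0.000341). Of 16 metal response genes 2 were higher, the zinc transporters SLC39A11 (0.52 ± 0.08, adjusted p = 0.000249) and SLC39A10 (0.91 ± 0.19, adjusted p = 0.00255), and 4 lower.

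Of 18 genes of selenoprotein synthesis and other selenoproteins, 2 were higher and 2 lower with rcSF3 in E7 cultures, among them SELENOM (-1.55 ± 0.22, adjusted p = 0.000113) and the deiodinases DIO2 (1.00 ± 0.19, adjusted p = 0.00110) and DIO3 (-1.45 ± 0.27, adjusted p = 0.00117). Of 6 tested sources of superoxide and peroxide, 1 was lower, CYBA, a subunit of NADPH oxidases also abundant in phagocytes, at -1.54 ± 0.12 (adjusted p = 4.45e-07), and it rose with serum by 0.97 ± 0.12 (adjusted p = 3.00e-05). Summed macrophage markers had medians of 6321 in E7 rcSF3 and 6180 in E7 SF3 with serum, against 9962 in E7 SF3. In E14 cultures the medians were 7478 in rcSF3 and 5838 in SF3 with serum, against 6548 in SF3. Of the 8 markers summed, 3 averaged above 100 in each group, and their part in the differences of CYBA was not tested. Of 10 stress genes, targets of ATF4 and p53, 4 were higher and 1 lower, with BTG2 at -1.22 ± 0.09 (adjusted p = 2.21e-07), MDM2 at 1.39 ± 0.21 (adjusted p = 0.000203) and ASNS at 1.70 ± 0.29 (adjusted p = 0.000532). Over these 10 lists the called genes went in both directions in 8 with rcSF3 in E7 cultures.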

How the data were processed

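RNA of 24 cultures was read on chicken genome arrays. The authors made the deposited intensity values with the GeneChip Operating Software: each is 1 linear signal per probe set, scaled so that the trimmed mean of every array was about 500.1. Its version and background step: not given in the sources used here. Of 38535 probe sets, 96 controls were left out, leaving 38439, and gene names came from the platform annotation, in which 27168 probe sets have 1 symbol, 177 several and 11094 none. Of the 27168, 26853 were found in RefSeq by gene ID, and 0 of those symbols differed.

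Signals were taken as log2 with no further normalization and tested with limma 3.58.1 in R 4.3.3 (Python 3.11.15, pandas 2.3.3 and matplotlib 3.10.9 for the rest), with 1 coefficient per group and moderated variances that follow a trend with signal. Within an age 12 arrays were fitted, and between ages 24. Probe sets in the top 50% by mean log2 signal at an age were kept. The number of arrays limits the precision. P-values were adjusted over all probe sets kept (Benjamini-Hochberg, 0.05). The study's methods name an analysis of variance, which was run as an alternative beside quantile normalization, other filters, a signal floor of 100, all arrays in 1 fit, a replicate block, the mean of all probe sets of a gene, and each array left out. The fit was tested on simulated data.

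Values on single arrays are given for genes called with a difference of at least 0.58 on the log2 scale (1.5-fold) between media or ages. They are also given for GCLC, GCLM, HMOX1 and NQO1 as known NRF2 targets, with a range for TXNRD1. For some of these genes the values are those of only some of the 8 groups. Of each other gene list the 2 to 4 genes with the lowest p in the comparison described are given (1 where 1 was called). Other genes given with values (GPX1, GPX4, GPX7, GPX8, GSTK1, the peroxiredoxins, SOD1, SOD2, FTH1, HMOX2, TXN, TXNDC5, TXNL4A, TXNL4B, GSTZ1, GSTO2, GSTA2, SLC7A11 and, between ages, ABCC4) were chosen after their values were seen. The members and gene lists were chosen with earlier results of these data known. The code of the E14 and E7 cultures with both stimuli was read as rcSF3 with serum, since the other media had codes of their own. No array pair was identical.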

Additional observations from a re-analysis of the deposited data

Results flagged for a closer look

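The responses of 6 genes to rcSF3 differed between E14 and E7 cultures in limma's test of the difference itself (response in E14 minus response in E7, log2 scale, n = 3 arrays a group). The difference was -1.45 ± 0.16 for GSTA4 (adjusted p = 7.10e-06), -0.77 ± 0.16 for MT4 (adjusted p = 0.00493) and -0.55 ± 0.11 for NQO1 (adjusted p = 0.00277), each higher with rcSF3 at both ages and less so in E14 cultures, where MT4 was not called. For GPX3 it was 0.62 ± 0.14 (adjusted p = 0.00938) and for GSTT1L 0.84 ± 0.20 (adjusted p = 0.0153), both of which stood lower with rcSF3 at both ages, with GSTT1L not called in E14 cultures. For GSTK1, which was lower in E14 rcSF3 and not called in E7 rcSF3, it was -0.56 ± 0.14 (adjusted p = 0.0219). In the mean of all probe sets of a gene, the calls of NQO1, GSTT1L and GSTK1 were lost.

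The serum responses of 3 genes differed between the ages, by the same test. The difference was -1.04 ± 0.16 for MT4 (adjusted p = 0.000736) and -0.86 ± 0.16 for GSTA4 (adjusted p = 0.00313), which rose with serum at both ages. For SOD3 it was -0.98 ± 0.16 (adjusted p = 0.00150), with a fall in E14 and no called difference in E7 cultures.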

How the results depend on the processing

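Of 139 single calls, 51 were kept in every setting, and 88 were lost or changed sign in at least 1, 14 of them changing sign. In 12 of those the mean of all probe sets of the gene, which includes sets under the filter, gave 0.0551 (GSTK1), -0.21 (NQO1) and -0.0968 (TXNDC5) for rcSF3 in E14 cultures, -0.33 for TXNDC5 with rcSF3 in E7 cultures, -0.16 for NQO1 with serum in E14 cultures, -0.0426 (GCLC) and -0.41 (NQO1) for serum in E7 cultures, -0.44 for NQO1 for serum with rcSF3 in E7 cultures, -0.0158 (GSS) and -0.27 (SOD1) between ages in SF3, 0.17 for TXNL4A between ages in rcSF3 and 0.36 for GSTK1 for rcSF3 between ages. Quantile normalization gave 0.04 for GPX4 with serum in E7 cultures and 0.0029 for TXN for serum with rcSF3 in E14 cultures.

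The 9 genes called for rcSF3 in E14 cultures became 5 with the mean of all probe sets, 3 without a filter and 5 without moderated variances, and 1 to 5 with single arrays left out. The 1 gene called for rcSF3 with serum present in E14 cultures became 3 with 40% of probe sets kept, 4 with all 24 arrays in the fit, 0 with the mean of all probe sets, 3 after quantile normalization, 3 with signals raised to 100, 0 without moderated variances and 0 to 2 with single arrays left out. The 12 for serum in E14 cultures became 6 without a filter, 7 without moderated variances and 6 to 13 with single arrays left out, the 18 for serum with rcSF3 there 11 to 16, and the 14 for serum with rcSF3 in E7 cultures became 9 after quantile normalization. Over all probe sets, the E14 calls with single arrays left out were 1043 to 1547 for rcSF3 and 107 to 490 for rcSF3 with serum present (1840 and 540 with every array). They were 3354 to 3794 for serum and 3168 to 3867 for serum with rcSF3 (4554 and 4391 with every array). The causes were not tested. The replicate numbers did not meet the rule for pairing the arrays, since 10 of 36 same-number pairs of an age correlated over 0.1 in their deviations from the group means (-0.091 to 0.224), although 17 of 24 arrays correlated best with their own number, a hint from the data and not the design. With the replicate block the counts in E14 cultures were 6 for rcSF3, 13 for serum, 2 for rcSF3 with serum present and 19 for serum with rcSF3 present, and in E7 cultures 16, 21, 12 and 15. Dim probe sets limit what HMOX1, TXNRD1, GPX2 and GPX7 can show, and 3 arrays a group limit the precision throughout.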
